A study of Mus musculus with 16 samples.

Results

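The clustered histone genes are the protein-coding mouse genes whose symbols in the GRCm38 annotation of GENCODE M21 begin with Hist1h, Hist2h, Hist3h or Hist4h. They were chosen by symbol alone, and 67 of the 54532 genes in the deposited count table are members; 3 pseudogenes with such names were left out. By class there are 6 H1 genes, 18 H2A genes, 18 H2B genes, 12 H3 genes and 13 H4 genes. By position, 54 lie in cluster 1 on chromosome 13, 10 in cluster 2 on chromosome 3, 2 in cluster 3 on chromosome 11 and 1, Hist4h4, on chromosome 6. The annotation gives 62 of them a single exon.

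The libraries came from parvalbumin (PV) interneurons, the fast-spiking inhibitory cells of the cortex, sorted from adult mice of 113.1 ± 11.6 days. All 16 mice carried PV-Cre, a recombinase driven in PV cells. In 9 of them it switched on eGFP alone (PV-Cre;lsl-eGFP, the controls), and in 7 it switched on eGFP joined to GluA2 (PV-Cre;lsl-eGFP-GluA2), the AMPA receptor subunit that makes the channel impermeable to calcium, so that calcium-permeable receptors are removed. The tissue was fixed in 4% PFA before it was triturated into cells, cells positive for the nuclear dye DRAQ5 and for green fluorescence were sorted from each mouse, and RNA was enriched by polyA selection and sequenced in 150-base paired reads.

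H2A, H2B, H3 and H4 are the core histones around which DNA is wound, and H1 binds the linker DNA between these particles. Most clustered histone genes are transcribed in S phase, when new DNA has to be packed. Their mRNAs usually end not in a polyA tail but just after a stem-loop that is bound by the stem-loop binding protein Slbp. Some of the genes also give mRNAs that run on to a polyA signal further downstream, and such forms are known in cells that no longer divide. PV interneurons of the adult cortex do not divide, and polyA selection keeps RNA with a tail.

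The stem-loops of 10 members are shown because they mark where a tailless mRNA would end. The bases in capitals are the stem-loop itself, in the transcript's sense, with up to 6 bases after it. Hist1h1c and Hist1h1e encode linker histones, Hist3h2a an H2A, Hist3h2ba an H2B, Hist1h3e and Hist1h3g an H3 and the other 4 an H4. The stretches lie at chr13:23739509-23739533 (plus strand), chr13:23621776-23621800 (minus), chr11:58955169-58955193 (plus), chr11:58949346-58949370 (plus), chr13:23561897-23561921 (minus), chr13:23535886-23535910 (plus), chr13:23531455-23531479 (plus), chr13:23760794-23760818 (minus), chr3:96262933-96262957 (minus) and chr6:136803992-136804016 (minus) of GRCm38, in the part of each exon after the coding sequence.
Hist1h1c: aaaGGCTCTTTTCAGAGCCaccact
Hist1h1e: aaaGGCTCTTTTCAGAGCCacccac
Hist3h2a: aaaGGCTCTTTTCAGAGCCacccac
Hist3h2ba: aaaGGCTCTTTTCAGAGCCaccttc
Hist1h3e: aacGGCTCTTTTAAGAGCCacctcc
Hist1h3g: aaaGGCTCTTCTTAGAGCCacccat
Hist1h4h: aaaGGCCCTTTTCAGGGCCgcccac
Hist1h4a: aaaGGCCCTTCTCAGGGCCgcccac
Hist2h4: aacGGCCCTTTTTAGGGCCaaccac
Hist4h4: aaaGGCCCTTTTCAGGGCCcacaaa

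The annotated transcripts were searched on the sense strand for the stem-loop in capitals under Hist1h1c, with any base allowed in place of the C after its run of T. With at most 3 mismatches this found a match in 44 of the 67 members. At that tolerance 7.68% of the other protein-coding genes had one too. An exact match was found in 33 members (49.3%) and in 2 of the 21851 other protein-coding genes searched (0.00915%). Of the 34 members outside the H4 class with a match, 33 matched exactly and Hist1h3g carried GGCTCTTCTTAGAGCC. The H4 genes carried another stem, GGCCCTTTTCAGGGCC in 7, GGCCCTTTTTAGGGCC in 2 and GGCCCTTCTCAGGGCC in Hist1h4a. Of the 44, 22 had annotated transcripts that ended within 100 bases of the stem-loop, and the longest of these ran on for 74 bases. In the other 22 the longest transcript continued for 108 to 4884 bases, and 11 of these held AATAAA or ATTAAA in their last 50 bases. Hist4h4 ran on for 2445 bases, Hist3h2a for 1643 and Hist2h4 for 1257. The 23 members without a match included 15 whose longest annotated transcript had at most 450 bases. The limit of 100 bases was chosen after the distances had been seen.

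The upstream regions of 2 members show how promoters of the family differ. Sequences are from RefSeq on GRCm38.p6, which gave a promoter for 62 of the 67 members. Hist1h2bg, an H2B gene of cluster 1, is shown with the bases before its start (chr13:23571150-23571399, plus strand), and so is Hist4h4 (chr6:136804432-136804681, minus strand). Capitals mark CCAAT or its reverse complement ATTGG, the octamer ATTTGCAT and the TATA sequence TATAAA, each searched on both strands.
Hist1h2bg: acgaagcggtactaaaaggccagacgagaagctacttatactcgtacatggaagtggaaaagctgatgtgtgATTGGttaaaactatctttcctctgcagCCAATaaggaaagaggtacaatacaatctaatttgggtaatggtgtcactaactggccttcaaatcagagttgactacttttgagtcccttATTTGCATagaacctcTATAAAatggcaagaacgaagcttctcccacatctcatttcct
Hist4h4: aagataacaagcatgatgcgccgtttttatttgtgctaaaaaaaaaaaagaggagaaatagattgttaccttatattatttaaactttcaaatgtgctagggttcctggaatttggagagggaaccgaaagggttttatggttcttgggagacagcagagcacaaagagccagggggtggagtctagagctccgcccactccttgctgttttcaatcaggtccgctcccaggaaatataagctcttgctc

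In windows of 300 bases, 250 before and 50 after the start, CCAAT was found in all 50 promoters of the H1, H2A, H2B and H3 genes and in 3 of the 12 H4 promoters. It was found in 37.4% of all 32851 promoters in the table. The octamer, which POU factors such as Pou2f1 are known to bind, was in 7 of 18 H2A and 6 of 16 H2B promoters and in no H1, H3 or H4 promoter, against 1.74% of all promoters. Some H2A and H2B windows overlap on opposite strands, so the same site can count for both genes. The octamer did so for Hist1h2aa with Hist1h2ba, Hist1h2ae with Hist1h2bg and Hist1h2ah with Hist1h2bk. TATAAA was in 35 of the 62, against 13.6%. The Hist4h4 window held none of the 3.

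The libraries held 7454165 to 15462544 counts each. They differed in a background of reads over genes that cortical neurons are not known to use, which was measured as the sum over 1450 olfactory and vomeronasal receptor genes in CPM, counts scaled to the library size. Below 500 CPM of these lay 5 libraries (eGFP replicates 7, 8 and 9, eGFP-GluA2 replicates 6 and 7), called low-background here, and above 1500 CPM lay 6 (eGFP replicates 1 to 4, eGFP-GluA2 replicates 1 and 3), called high-background. The other 5 are called middle. All other CPM values are scaled with TMM, edgeR's trimmed mean of M-values, unless library totals are named. Of the PV interneuron markers, 12 of 12 were detected and their summed level was 12108 to 12818 CPM in the low-background libraries and 4583 to 8509 CPM in the high-background ones. Markers of excitatory neurons summed to 164 to 345 CPM over all libraries and those of endothelial cells to 8.77 to 16.5 CPM in low-background and 46.2 to 70.1 CPM in high-background libraries. Gria2, which encodes GluA2, was at 472 to 783 CPM in eGFP and 718 to 1215 CPM in eGFP-GluA2 libraries, with a difference of 0.71 ± 0.16 (SE) on the log2 scale (edgeR adjusted p = 1.00), and did not overlap between groups at any of the 3 background levels.

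H4 genes had the largest share of clustered histone RNA in these libraries. Levels are compared between genes in TPM, a unit that takes transcript length into account. The members' mean over the 16 libraries ran from 0 to 97.0 TPM with a median of 4.31 TPM, and 18 members reached 10 TPM. The median H4 gene was at 28.5 TPM, against 5.81 TPM for H1, 3.59 TPM for H3, 2.58 TPM for H2A and 2.41 TPM for H2B. Of the 13 H4 genes 9 reached 10 TPM, and of the other 54 genes 9 did. H4 made up 48.4% to 58.1% of the members' summed TPM (median 55.8% over 16 libraries), H2B 15.6%, H2A 15.0%, H3 8.79% and H1 5.69% at their medians. The share of H4 was lower in the high-background libraries (48.4% to 54.6%) than in the low-background ones (56.3% to 57.3%), and these ranges did not overlap. In each of the 16 libraries H4 had the largest TPM share of the 5 classes, although the share was under 50% in 3 high-background libraries. Of the deposited counts, which grow with transcript length, H4 held 48.7%, H1 22.6%, H2B 14.1%, H3 8.66% and H2A 5.91%.

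**Figure D1:**
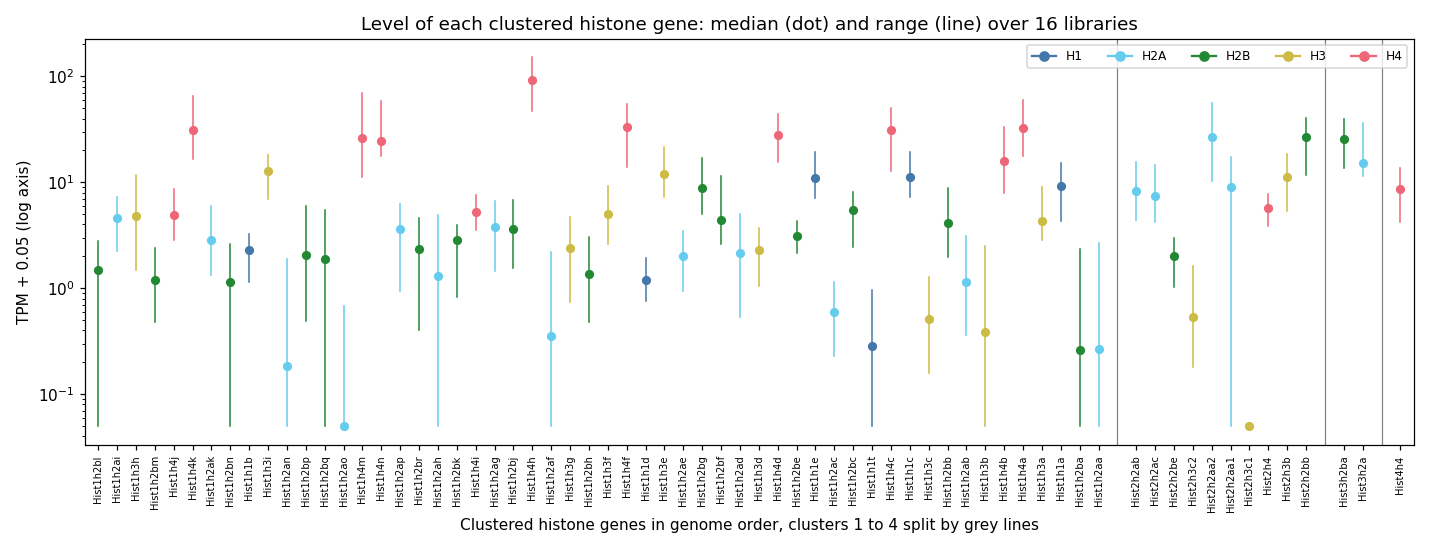
Level of each of the 67 clustered histone genes in genome order, in TPM + 0.05 on a log axis, with the median (dot) and the range (line) over 16 libraries, coloured by class. The highest dot is the H4 gene Hist1h4h, the H4 genes Hist1h4i and Hist1h4j lie among the other classes, and Hist2h3c1 is listed at 0 throughout.

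Hist1h4h had the highest mean of all members. Its level was 55.7 TPM at the lowest, 89.9 at the median and 148 at the highest in the 9 eGFP libraries, and 46.8, 94.9 and 151 TPM in the 7 eGFP-GluA2 libraries. Its annotated transcript, 470 bases long, ends 46 bases after the stem-loop and holds a polyA signal. Hist1h4k (36.7 TPM), Hist1h4a (34.8 TPM), Hist1h4f (34.7 TPM) and Hist1h4c (31.5 TPM), also H4 genes of cluster 1, followed at mean levels close to each other, with ranges over libraries that overlapped throughout.

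The single H4 genes outside cluster 1 were lower than these 5, as were Hist1h4i (5.40 TPM) and Hist1h4j (5.01 TPM) of cluster 1. Hist2h4 was at 4.49, 5.38 and 7.05 TPM (lowest, median and highest) in eGFP libraries and 3.81, 5.94 and 7.62 TPM in eGFP-GluA2 libraries. Every library had less Hist2h4 than Hist1h4h in TPM. Hist4h4 averaged 8.67 TPM.

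Cluster 3, with its 2 genes, stood above most of the other H2A and H2B genes. Hist3h2ba was at 13.6, 27.0 and 36.9 TPM in eGFP and 16.3, 24.6 and 39.7 TPM in eGFP-GluA2 libraries, and had the highest mean of the H2B genes (26.9 TPM). Hist3h2a was at 11.4, 15.3 and 26.5 TPM in eGFP and 11.5, 15.0 and 36.1 TPM in eGFP-GluA2 libraries. Both overlapped widely between groups, and both carry transcripts that run past the stem-loop by more than 100 bases.

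In cluster 2, Hist2h2aa2 led the H2A class with a mean of 29.1 TPM, and Hist2h2bb was next to Hist3h2ba among the H2B genes with 26.3 TPM. Among H3 genes Hist1h3e (13.2 TPM), Hist1h3i (12.6 TPM) and Hist2h3b (11.3 TPM) stood highest, with ranges over libraries that overlapped. Hist2h2aa2, Hist2h2bb and Hist2h3b had no deposited count in any library, so their ranks are uncertain. Of the linker histones, Hist1h1c had 12.5 TPM, Hist1h1e 11.8 TPM and Hist1h1a 9.45 TPM. Hist1h1c was above Hist1h1a in 16 of 16 libraries and Hist1h1e was above it in 14 of 16, while Hist1h1c was above Hist1h1e in 12 of 16.

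The order of levels by annotated end depended on the class and the unit. Members whose transcript runs on by more than 100 bases had a median of 5.59 TPM, those that end within 100 bases 3.67 TPM and those without a match 2.98 TPM. In low-background libraries, counts per length gave 6.81, 1.39 and 2.05 CPM per kb in the same order. Transcripts that run on had a lower median TPM than those ending within 100 bases in H4 (18.6 against 31.8) and H2A (1.98 against 3.67). They had the higher one in H2B (6.56 against 3.03) and H3 (2.35 against 1.58). By counts per length in low-background libraries the H2A order was reversed, at 2.67 (n = 3) against 0.209 CPM per kb (n = 8). Of those 8 H2A genes, 2 had no deposited counts. The order in H4, H2B and H3 was the same by counts per length. In H3 the 3 genes without a match had the highest median of the end classes, 11.3 TPM. The end classes of H4 rest on matches with 2 or 3 mismatches.

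Reads of 150 bases cannot always be assigned among histone genes of nearly the same sequence, nor among genes that overlap. The files hold a pair of quantifications, and they differed for many members. The count table holds whole counts, and reads could be recovered from the authors' normalized values, which were whole multiples of a size factor for 100% of values (within 0.001). The members had 69696 deposited counts and 98567 recovered reads in all. Hist2h2aa1, Hist2h2aa2, Hist2h2bb, Hist2h3b and Hist2h3c1 had no deposited count in any library, and all their exon bases overlap another annotated gene. For these genes a count of 0 sets no limit on the level, since other deposited values of 4 of them lie well above it. Of these 5, 4 had recovered reads, 1224 for Hist2h2aa1, 3522 for Hist2h2aa2, 1600 for Hist2h2bb and 1252 for Hist2h3b, together 7.71% of the members' recovered reads. Among the 62 members with counts, 14 had at least 2 recovered reads per count. Of the 14, those with enough counts to be tested between groups were Hist1h4j, Hist1h4m, Hist1h4n and Hist3h2a. Over all genes tested the share was 6.30%, but that set leaves out genes with few counts and is not a like set. The ratio was 58.3 for Hist1h2ap (6 counts, 350 reads), 52.3 for Hist1h2br (10 and 523), and 26.7 for Hist1h2bq (14 and 374). In the other direction Hist1h2ao had 21 counts and 5 reads, Hist1h2bn 171 and 84, and Hist1h2ba 48 and 26. Shared stretches of 150 bases were searched among the clustered histone genes and pseudogenes of such names only. The median ratio was 2.42 for the 20 members that share over 50% of these stretches with another of them and 1.09 for the rest. Members that share no such stretch could differ too, as Hist3h2a did with 2004 counts and 8729 reads and Hist2h2ab with 114 and 724; both overlap another gene. What sets the quantifications apart was not tested. Levels of members on which they differ are uncertain, and so are the order of the H2A genes and the ranks of Hist2h2bb and Hist2h3b.

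**Figure D2:**
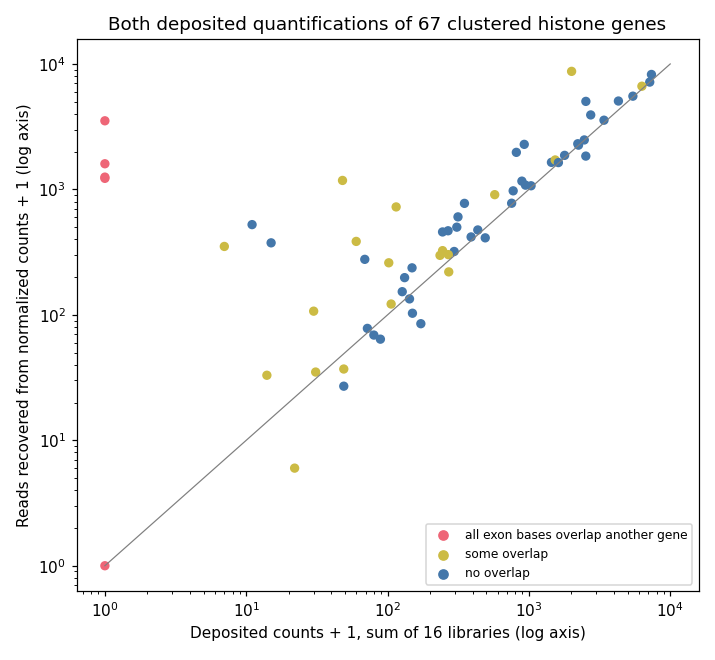
Deposited counts (horizontal) and recovered reads (vertical) of 67 members, summed over 16 libraries, plus 1, on log axes, with the line of equal values in grey. The members whose exons wholly overlap other genes lie on the left edge, without counts, and 4 of them have 1224 to 3522 reads.

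The comparison of eGFP-GluA2 with eGFP asks what removing calcium-permeable AMPA receptors does to the transcriptome of PV cells. No member changed at an adjusted p under 0.05 (edgeR quasi-likelihood test, Benjamini-Hochberg over all genes), with 0 of 39 members tested. Over all 26257 genes tested 1 passed, or 0.00381%. At an unadjusted p under 0.05, 1 member was lower and none higher, where the backgrounds were 0.552% lower and 0.564% higher. At either sign 1.12% of all genes had such a p. DESeq2 called 0 members after adjustment (0.0154% of all genes) and had 2 at an unadjusted p under 0.05 (0.913%). On recovered reads 53 members could be tested and 0 passed in edgeR (0.0127% of all genes). The authors' deposited table has a fold change for 66 members and lists 0 with an adjusted p under 0.05 and 1 with an unadjusted one. Of all genes in it, 9 had such an adjusted p and 1.01% such an unadjusted p. In bulk libraries such as these, fewer cells of a type and less RNA per cell cannot be told apart.

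The 39 members that could be tested were those with enough counts, and the 28 others held 2.36% of the members' counts. The median log2 fold change of the 39 was 0.05, against -0.02 for all genes tested, with 27 above 0 and 12 below, where 45.5% of all genes were above 0. By class the medians were 0.03 for 5 H1 genes, 0.04 for 6 H2A genes, 0.14 for 10 H2B genes, 0.05 for 6 H3 genes and 0.08 for 12 H4 genes. This fit holds no term for background, and 4 eGFP but 2 eGFP-GluA2 libraries had high background. Under the alternatives the members' median took either sign, and several members changed sign with background levels as a block. For 31 of the 39, the 95% interval of the difference lay within a 2-fold change in either direction.

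**Figure D3:**
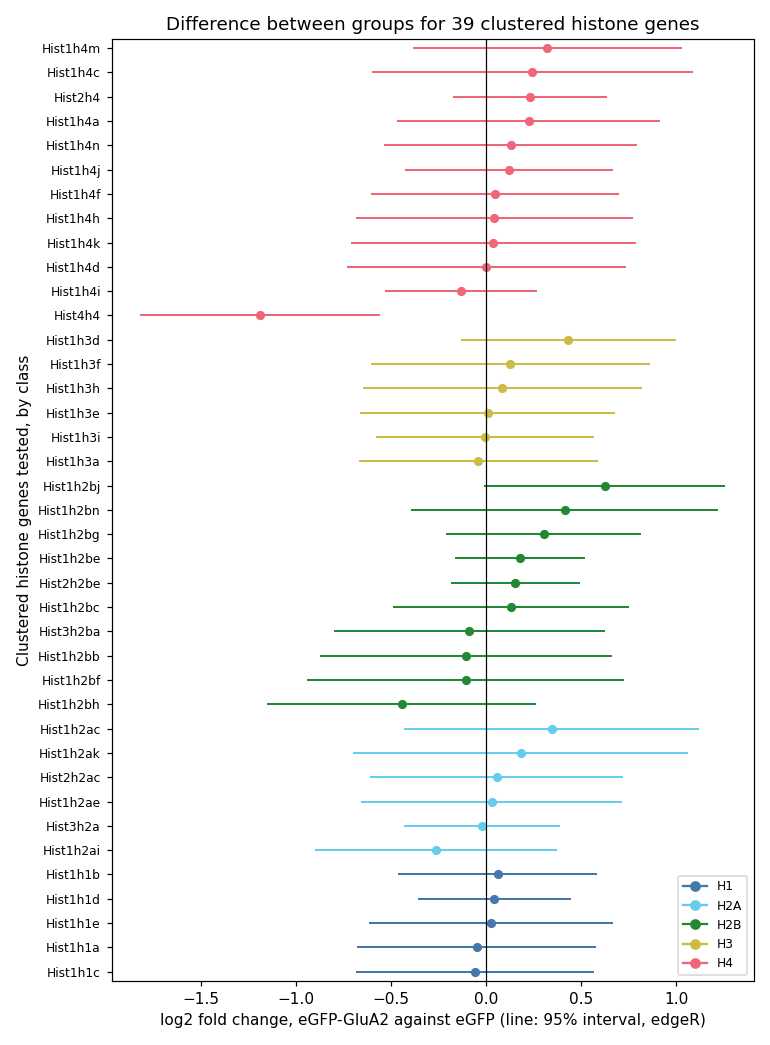
Log2 fold change of eGFP-GluA2 against eGFP for the 39 members tested, with 95% intervals from edgeR, coloured by class. All but Hist4h4, at -1.19, have an interval that crosses 0.

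Among the abundant members, intervals of the difference included 0. Hist1h4h was at 17.6, 50.1 and 61.1 CPM (lowest, median, highest) in eGFP and 16.6, 47.9 and 75.3 CPM in eGFP-GluA2 libraries, a difference of 0.04 on the log2 scale with a 95% interval of -0.68 to 0.77. Hist1h4d, another H4 gene of cluster 1, was at 15.7, 49.8 and 66.3 CPM in eGFP and 17.5, 44.4 and 71.5 CPM in eGFP-GluA2, and differed by 0.00 (-0.73 to 0.73). Both genes ranged over more than 3-fold within each group, and the lowest value of each group was in a high-background library. Hist1h1c differed by -0.06 (-0.68 to 0.56), Hist3h2ba by -0.09 (-0.79 to 0.62) and Hist2h4 by 0.23 (-0.17 to 0.63). These intervals are wide enough to leave a 1.5-fold change in at least 1 direction within them.

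After Hist4h4, the smallest unadjusted p belonged to Hist1h2bj, an H2B gene of cluster 1. It was at 0.610, 1.47 and 2.06 CPM in eGFP and 1.5, 1.82 and 3.91 CPM in eGFP-GluA2 libraries. The groups overlapped, the difference was 0.62 ± 0.30 (SE) on the log2 scale, and the edgeR adjusted p was 1.00. Hist1h3d (0.43 ± 0.27), Hist1h2bn (0.41 ± 0.38, but -0.076 by limma on log2(TPM + 0.1)), Hist1h2bg (0.30 ± 0.24), Hist2h4 (0.23 ± 0.19) and Hist1h2be (0.18 ± 0.16) had positive estimates and Hist1h2bh (-0.44 ± 0.33) a negative one. All of these had an adjusted p of 1.00.

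Hist4h4, the lone H4 gene of chromosome 6 (ENSMUSG00000096010, chr6:136801553-136804415, GRCm38, minus strand), had the largest difference of the members tested and was singled out after its values were seen. In the 9 eGFP libraries it was at 8.71, 25.3, 11.7, 11.2, 23.7, 22.6, 21.4, 26.2 and 27.6 CPM, in order of replicate number. In the 7 eGFP-GluA2 libraries it was at 6.13, 9.58, 6.28, 10.7, 17.1, 5.17 and 6.40 CPM. The groups overlapped, since eGFP replicates 1, 3 and 4, all with high background, lay within the range of the other group. No member tested was without overlap over all 16 libraries, and 0.019% of all genes tested were. The difference was -1.19 ± 0.30 (SE) on the log2 scale, with an unadjusted p of 0.000924 and an edgeR adjusted p of 1.00, and so did not pass the test. Over the alternatives the adjusted p ran from 0.110 to 1.00. The single transcript has 1 exon that overlaps no other annotated gene. It shares no 150-base stretch with another clustered histone gene or a pseudogene of such a name, and other genes were not searched for this.

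Set against libraries of like background, Hist4h4 did not overlap between groups. In low-background libraries it was at 21.4 to 27.6 CPM in eGFP (n = 3) and 5.17 to 6.40 CPM in eGFP-GluA2 (n = 2). In middle libraries it was at 22.6 to 23.7 CPM (n = 2) and 9.58 to 17.1 CPM (n = 3), and in high-background libraries at 8.71 to 25.3 CPM (n = 4) and 6.13 to 6.28 CPM (n = 2). It was the 1 member lower without overlap at all 3 levels, and 60 of all 26257 genes tested were (0.229%). No member was higher in that way, against 0.0571% of all genes. With the background level as a block the difference was -1.39, with an edgeR adjusted p of 0.167.

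The size of the Hist4h4 difference rested on the quantification. From TPM it was -0.61 on the log2(TPM + 0.5) scale and from recovered reads -0.68, each with an adjusted p of 1.00 (limma and edgeR). The authors' deposited table gives -0.52 with an adjusted p of 0.347. It lists a standard error of only 0.030 for Hist1h2ao at a base mean of 0.292, so its fold changes may be shrunken toward 0. Its value is thus not a like measure of size. In TPM the eGFP libraries were at 7.50, 9.78 and 13.7 and the eGFP-GluA2 libraries at 4.19, 6.60 and 9.87 (lowest, median, highest). By recovered reads they were at 21.1, 26.4 and 33.5 CPM and at 9.05, 19.4 and 21.3 CPM. In TPM as in recovered reads the groups again overlapped over all libraries and at none of the 3 background levels. The gene had 2529 counts and 5030 recovered reads in all.

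The genes around Hist4h4 were looked at because of its values. Within 1000000 bases on either side, 24 other genes were tested, and at an unadjusted p under 0.05 3 were higher and 1 lower. Over all 26257 genes tested in edgeR, 0.564% were higher and 0.552% lower at such a p. The higher ones were Rerg (0.61), 4930480K02Rik (1.03) and Eps8, an actin regulator (0.82), in log2 fold change, and the lower one was the antisense transcript Gm14330 (-0.49). None of these passed adjustment. H2afj, the replacement H2A gene that lies next to Hist4h4, differed by 0.19 ± 0.18 (edgeR adjusted p = 1.00).

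**Figure D4:**
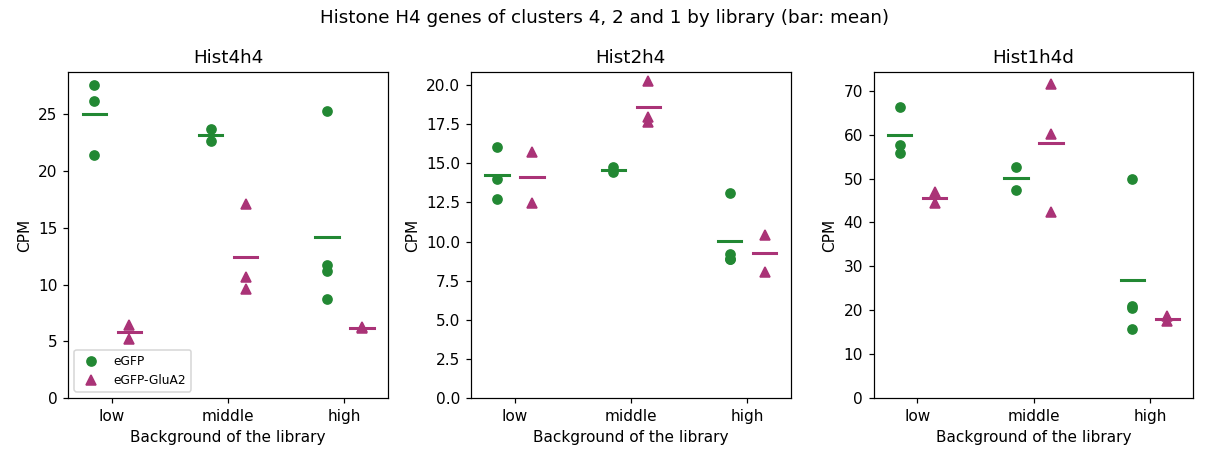
Hist4h4, Hist2h4 and Hist1h4d in CPM in each of the 16 libraries, by background of the library and by group, with the mean as a bar. Hist4h4 is lower in eGFP-GluA2 at each of the 3 levels without overlap, while Hist1h4d overlaps between groups at the middle and high levels.

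The members' summed level was lower in most high-background libraries. By TMM it was 423 to 569 CPM in the 5 low-background libraries and 208 to 475 CPM in the 6 high-background ones. The 5 middle libraries, at 427 to 655 CPM by TMM, were not below the low-background ones. By plain library totals it was 387 to 489 CPM in low-background, 357 to 624 CPM in middle and 280 to 459 CPM in high-background libraries. The means by totals were 428 CPM in low-background and 326 CPM in high-background libraries. In TPM it was 733 to 1023 in low-background, 548 to 875 in middle and 413 to 607 in high-background libraries. The ranges of low-background and high-background libraries overlapped in CPM only through eGFP replicate 2, the library of least background among the 6. Without it the mean of the high-background libraries was 231 CPM by TMM, against 272 CPM with it and 497 CPM in low-background libraries. Between genotypes the summed level was 208, 475 and 569 CPM (lowest, median, highest) in eGFP and 226, 428 and 655 CPM in eGFP-GluA2, which overlapped over almost their whole range.

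**Figure D5:**
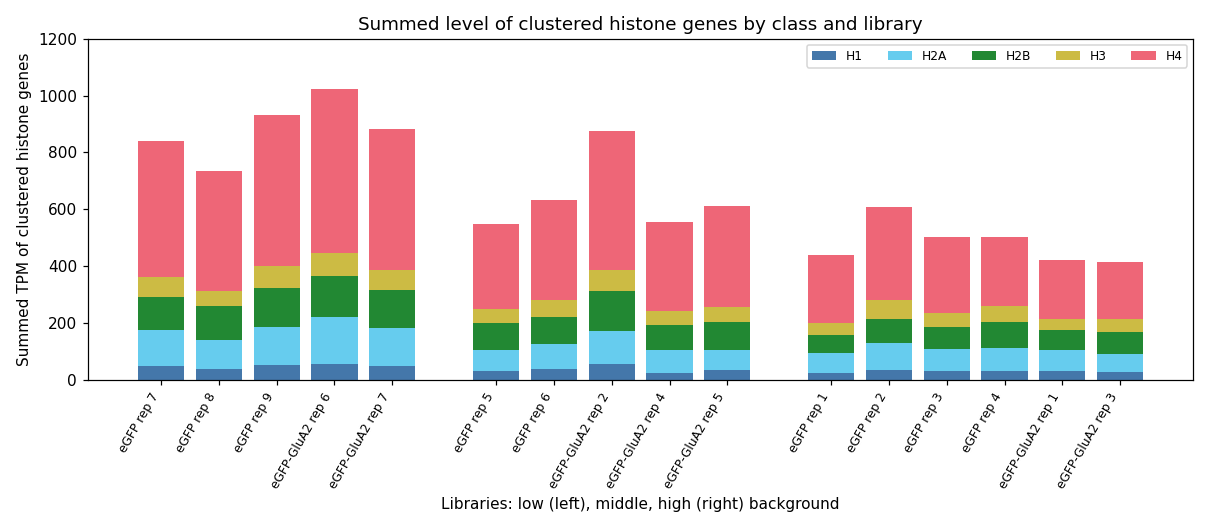
Summed TPM of the clustered histone genes in each library, stacked by class, with low-background libraries on the left and high-background libraries on the right. The 5 libraries on the left reach 733 to 1023 and the 6 on the right 413 to 607, and H4 is the largest class in each.

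Of the 39 members tested, 36 had a higher mean in low-background than in high-background libraries by CPM scaled with TMM, edgeR's trimmed mean of M-values (25 by plain library totals), where 43.8% of all genes tested were higher in low-background libraries (22.9% by library totals). The choice of scale moved the median of all genes from 0.17 to 0.70 in log2 of high over low. Against that median the members lay lower on both scales, with a median of -0.65 by TMM and -0.13 by library totals. The median ratio of high to low was 0.64 for the members tested, 1.15 for all genes tested, 0.93 for protein-coding genes and 1.08 for the other single-exon protein-coding genes tested. Every low-background library was above every high-background one in 7 of the 39, or 17.9%, which is below the 26% of all genes tested that were. This ordering was not used to choose the members, and it is given with no test because the split was made after these data had been seen.

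All 12 H4 genes tested were higher in low-background libraries by TMM, 10 of 12 by library totals, and 11 of 12 by TPM and by recovered reads. Hist1h4c was at 27.4 to 42.7 CPM in low-background libraries and 7.58 to 23.6 CPM in high-background ones, a ratio of means of 2.76. Hist1h4h was at 47.9 to 61.1 CPM and 16.6 to 50.1 CPM, a ratio of 2.21. Hist4h4 was higher in low-background libraries by CPM (17.4 against 11.6) and lower by TPM (6.97 against 11.6), and of the 12 H4 genes tested it is the 1 whose direction turned by TPM and by recovered reads. The PV marker list, with which these levels moved, is given above, and its part in them was not tested. By TMM, the replacement histone variants had a higher summed level in low-background libraries (493 to 566 CPM) than in high-background ones (245 to 408 CPM). So did histone chaperones (1990 to 2345 against 1126 to 1616 CPM) and genes of histone mRNA processing and transcription (1295 to 1365 against 841 to 1034 CPM). Genes of S phase and mitosis had the reverse order, given below.

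The members with few counts had another order by CPM. Of the 28 not tested, 19 were higher in high-background libraries and 4 in low-background ones by TMM (20 and 3 by library totals), but 12 and 15 by TPM and again 12 and 15 by recovered reads, and 5 had no counts. Of all genes not tested that had counts, 96.0% were higher in high-background libraries by TMM, and 94.9% by TPM of those with a value. Over all 62 members with counts, 22 were higher in high-background libraries by TMM, 34 by library totals, 17 by TPM and 15 by recovered reads, the last pair over 66 members. Hist1h2aa, Hist1h2ba and Hist1h1t are histone genes known from the testis. Hist1h2aa had 0 counts in each of the 5 low-background libraries and 4, 5, 9, 6, 4 and 5 counts in the 6 high-background ones. By library totals that was at least 13.8-fold higher, against 3 counts over the low-background group. Hist1h1t had 6 counts in low-background and 64 in high-background libraries, and Hist1h2ba had 3 and 33. The receptor genes that define the background were a median of 73.0-fold higher in the high-background libraries.

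Most members lay above the level of most receptor genes per length of exon, but in low-background libraries a few reads were enough for that. In low-background libraries 57 of 67 members lay above the 95th percentile of the receptor genes (0.0495 CPM per kb), in middle libraries 55 (0.439 CPM per kb) and in high-background libraries 52 (0.858 CPM per kb). In low-background libraries the number was 46 at the 99th percentile, 40 by TPM and 43 by recovered reads. Hist1h1t and Hist1h2ba, with 6 and 3 counts in those libraries, were among the 57. No share over all genes is given beside these numbers.

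Other genes of histone supply did not pass the test between groups. Of 11 replacement histone variants, the histones made outside S phase, 0 passed in either direction, with 8 above 0, 3 below and a median of 0.05. The most abundant were H3f3b (86.8 CPM, -0.05 ± 0.25 SE on the log2 scale) and H2afz (86.4 CPM, 0.13 ± 0.30), which encode H3.3 and H2A.Z. H2afx, which is phosphorylated at DNA breaks, had 0.28 ± 0.25. Of 20 genes of histone mRNA processing and transcription 0 passed, with 9 above 0, 11 below and a median of -0.01. Slbp was at 31.8 CPM and differed by -0.12 ± 0.18, and Npat, a coactivator of histone gene transcription, was at 35.2 CPM and differed by -0.02 ± 0.12. Sympk, a scaffold of the cleavage complex, was at 151.8 CPM (0.08 ± 0.14).

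Of 20 histone chaperones, which carry histones to and from DNA, 0 passed, with 9 above 0, 11 below and a median of -0.03. Nap1l5 (368 CPM, -0.07 ± 0.28) and Atrx, a remodeller that deposits H3.3 (246 CPM, -0.06 ± 0.16), were the most abundant. Hira, another H3.3 chaperone, had the smallest unadjusted p of this list (0.13 ± 0.08). Of 20 genes of S phase and mitosis 0 passed, with 8 above 0, 12 below and a median of -0.03. Mki67, a marker of cycling cells, averaged 1.2 CPM in low-background and 7.51 CPM in high-background libraries, and Top2a 1.12 and 7.50 CPM. Pcna (27.7 and 15.2 CPM) and Ccne1 (26.1 and 15.7 CPM) had the opposite order. The summed level of this list was 108 to 123 CPM in low-background and 139 to 163 CPM in high-background libraries, the reverse of the clustered histone genes.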

How the data were processed

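RNA was measured in 16 libraries of sorted PV interneurons, 9 eGFP and 7 eGFP-GluA2, grouped by the genotype in the labels; the labels call them biological replicates. Per the labels' protocols, reads were processed with bcbio-nextgen 1.2.3, aligned to GRCm38 with STAR, counted per gene by Sailfish with Ensembl gene models, and tested with DESeq2. The step that made each table and the use of strand are not stated there. The authors deposited whole-number counts per gene, TPM, and counts normalized by size factors, treated here as a signal, from which whole reads were recovered by dividing out each library's step (100% of values whole within 0.001). The authors also deposited a table of log2 fold changes, with base means (read as a signal), standard errors and test statistics (scores) and p-values; values from it are named as theirs.

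Counts were tested with edgeR 4.0.16 in R 4.3.3 (TMM, filterByExpr, robust quasi-likelihood, 26257 of 54532 genes, Benjamini-Hochberg at 0.05). DESeq2 1.42.0 and limma 3.58.1 on log2(TPM + 0.5), also with 0.1 and 1, were alternatives, as were background terms, recovered reads, other scaling, no filter, a replicate block and leaving out libraries. On simulated data the fit called 7.46% of 67 genes changed 1.5-fold, 44.8% of 67 changed 2-fold and 56.1% of 66 changed 4-fold. The changed genes were drawn from all genes tested, not from the members, and those that the filter removed counted as not called. These shares are thus not those of the members, in which changes of these sizes could still be missed. Precision is limited by 7454165 to 15462544 counts per library, and limits for a count of 0 (3 counts) cover counting error only.

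Named members are the 3 of highest TPM per class, the 8 of smallest p, up to 12 not higher with background, the leading genes of clusters 2, 3 and 4, the testis-named genes and the 3 extremes each way of counts against recovered reads; from other lists, abundant genes and those of smallest p. Members and lists were chosen with earlier results of these data known. Lists for astrocytes, oligodendrocytes, their precursors, microglia and erythrocytes are summarised in the closing section. Protein sequences were not used here.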

Additional observations from a re-analysis of the deposited data

Results flagged for a closer look

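In 46 groups of libraries checked (22 named genes with a test, and the summed level, in both genotypes), 1 library stood apart, where chance marks about 1 in 20. Hist1h2bg, an H2B gene, was at a log2 CPM of 1.83 in eGFP-GluA2 replicate 3, against 2.49 to 2.93 in the other 6 libraries of that genotype, a gap of 0.601 of the whole range. That library is 1 of the 2 eGFP-GluA2 libraries with high background.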

How the results depend on the processing

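No member passed the threshold under any alternative, including each library left out in turn, and the members' median log2 fold change stayed between -0.07 and 0.16. Over all genes, 1 passed in the fit reported, against 8 with DESeq2, 9 with the background as a covariate, 11 with background levels as a block, 3, 2 and 2 with limma on TPM plus 0.1, 0.5 and 1, 3 on recovered reads and 3 without the 6 high-background libraries (added after seeing the data). By library totals 34 members were higher in high-background libraries, against 22 by TMM. With replicate numbers as a block 8 genes passed, and 0 members; same-numbered libraries correlated at -0.03 to 0.90, with replicate 4 lowest, and not every library correlated best with its own number, so the numbers were not taken to pair libraries. Estimates of 14 named genes changed sign, in 44 of 240 values, and none of them passed a threshold; the estimates farthest from 0 among these were 0.41 for Hist1h2bn, 0.24 for Hist1h4c and 0.22 for Hist1h4a. With background levels as a block these were Hist1h1e -0.18, Hist1h3e -0.19, Hist1h4a -0.045, Hist1h4c -0.034, Hist1h4d -0.25, Hist1h4f -0.19, Hist1h4h -0.25, Hist1h4k -0.19 and Hist3h2a 0.024. With limma (plus 0.1, 0.5 and 1) they were Hist1h1c 0.067, 0.066 and 0.064, Hist1h3e -0.017, -0.014 and -0.011, Hist1h4h -0.027, -0.026 and -0.026, Hist1h4k -0.030, -0.029 and -0.028, Hist3h2a 0.11 each time, and Hist1h2bn -0.076 at 0.1. On recovered reads they were Hist1h3e -0.085, Hist1h4f -0.024, Hist1h4h -0.086 and Hist1h4k -0.15. With the replicate block they were Hist1h1a 0.090, Hist1h1c 0.072, Hist1h3i 0.022, Hist3h2a 0.069 and Hist3h2ba 0.052. Without the 6 high-background libraries they were Hist1h3e -0.021, Hist1h3i 0.044, Hist1h4d -0.067, Hist1h4f -0.011 and Hist1h4k -0.033. With DESeq2 Hist1h3e was at -0.0067 and Hist1h4d at -0.017, with its size factors in edgeR they were at -0.0079 and -0.017, and with the background covariate Hist1h3e was at -0.0023. Leaving out each library gave -0.16 to 0.057 for Hist1h1a, -0.26 to 0.042 for Hist1h1c, -0.16 to 0.15 for Hist1h1e, -0.16 to 0.14 for Hist1h3e, -0.16 to 0.13 for Hist1h3i, -0.17 to 0.14 for Hist1h4d, -0.075 to 0.20 for Hist1h4f, -0.14 to 0.19 for Hist1h4h, -0.13 to 0.19 for Hist1h4k, -0.15 to 0.090 for Hist3h2a and -0.21 to 0.041 for Hist3h2ba. The causes were not tested.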

Other observations

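Values of the cell marker lists that the comparison does not use are given here. No list had a gene past the adjusted threshold in edgeR. The median log2 fold change was 0.00 for 12 PV interneuron genes, 0.19 for 9 excitatory neuron genes, -0.04 for 7 astrocyte genes, 0.19 for 7 oligodendrocyte genes, 0.02 for 6 genes of their precursors, 0.10 for 7 microglia genes, -0.07 for 7 endothelial genes and -0.99 for the 3 of 5 erythrocyte genes tested. Of these, Slc17a7, the vesicular glutamate transporter of cortical excitatory neurons, had 0.58 ± 0.22 (SE) and the globin gene Hbb-bs -1.41 ± 0.56, both with an edgeR adjusted p of 1.00. Summed levels in low-background against high-background libraries were 222 to 345 and 108 to 239 CPM for astrocyte genes, 96.3 to 182 and 68.0 to 126 CPM for oligodendrocyte genes, 8.07 to 13.7 and 45.0 to 57.3 CPM for genes of their precursors, 10.7 to 19.9 and 25.8 to 29.2 CPM for microglia genes and 20.0 to 39.3 and 17.9 to 25.1 CPM for erythrocyte genes.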
